A study of Verbena bonariensis with 6 samples.

Results

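The HMG family of Verbena bonariensis roots comprised 46 gene clusters of the 8147 clusters of transcriptional regulators measured, chosen as the clusters that the deposited table assigns to the family HMG. A gene cluster is the unit that the deposited table treats as a gene, and here it carries the name of its best database hit. The cadmium roots came from 2-month-old plants of the garden cultivar Finesse, whose soil held 100 mg/kg of the toxic metal cadmium for 20 days. The control roots came from plants of the same cultivar and age that received no cadmium solution. RNA was sequenced from 3 libraries per group, biological replicates by the labels, from greenhouse plants grown singly in pots. How many plants went into a library is not stated.

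Proteins with an HMG box bend DNA on binding it, mostly with little preference for sequence, and so help other proteins to reach or shape chromatin. In plants the HMGB proteins are small and abundant nuclear proteins with one such box, while SSRP1 carries the box at its end and pairs with SPT16 in FACT, a histone chaperone that helps RNA polymerase to pass nucleosomes. HMGB6 and HMGB13 carry several HMG boxes and are known in Arabidopsis to associate with chromosomes during mitosis, and HMGB9 joins an HMG box to an ARID DNA-binding domain.

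By KEGG orthology (KO), 23 of the 46 clusters were described as high mobility group protein B1 and are called the HMGB group here. The other 23 comprised 5 SSRP1 clusters, 8 clusters described as upstream-binding transcription factor, an animal activator of ribosomal RNA genes with several HMG boxes, and 10 clusters without a KO description. The 8 clusters had Arabidopsis HMGB6 or HMGB13 as best Swiss-Prot hit and are called the HMGB6 and HMGB13 group. Among the 10 without a KO description were 3 HMGB14 clusters, 1 HMGB9 cluster and 1 cluster with an HMG1/2-like hit.

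The remaining 5 of those 10 did not bear out the family label. The best NR hit of 4 of them was DRT100, a leucine-rich repeat protein named for DNA damage tolerance, and all 4 carried leucine-rich repeats in the Pfam column. The other was an uncharacterized protein whose best Swiss-Prot hit is a SINA-like ubiquitin ligase. The deposited Pfam descriptions named an HMG box in 0 of the 46 clusters and in 0 of all 8147, and 17 of the 46 were described there as YABBY proteins, so that column could not be used to check the label. The KOG column named an HMG box-containing protein for 20 of the 46. Best Swiss-Prot or NR hits named an HMG protein or SSRP1 for 41 of the 46, and results are given by role so that the 5 others can be set aside.

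Several clusters often stood for the same protein: the 46 shared 21 best proteins in NR, the NCBI protein database. On all 5 HMGB1 clusters the annotated coding stretch had base 251 as its lowest base, and on 4 of the 5 SSRP1 clusters it was base 155. On 4 HMG1/2-like clusters it was base 67, and on 4 of the 5 HMGB6 clusters base 282. The HMGB1, SSRP1 and HMGB6 stretches are annotated on the minus strand, where the lowest base need not be the start of coding. Cluster lengths ran between 275 and 2678 bases. Clusters that share a coding stretch may share reads, and the counting may have divided such reads between them, so each value of a single cluster is uncertain to that extent. For this reason counts summed over the best NR protein are given beside the clusters.

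Regulator counts summed to between 1092183 and 1228042 per cadmium library and between 1207479 and 1340255 per control library. The number of the 8147 clusters at 0 was 2105 to 2220 in cadmium libraries and 1851 to 1924 in control libraries. Among the 46 HMG clusters, 36, 36 and 30 were above 0 in the cadmium libraries and 42, 37 and 41 in the control libraries. Of the root regulators searched by name, summed FPKM of PLETHORA clusters, which mark root stem cells, was 3.56 to 8.16 in cadmium and 0.65 to 1.81 in control libraries. That of WEREWOLF clusters, known from the root epidermis, was 18.07 to 20.83 in cadmium and 36.67 to 46.47 in control libraries. SHORT-ROOT clusters gave 17.27 to 23.42 FPKM in cadmium and 29.53 to 34.24 FPKM in control libraries, and WOX5 clusters gave 1.15 to 1.87 FPKM in cadmium and 0.09 to 0.49 FPKM in control libraries. SCARECROW clusters gave 6.68 to 8.8 FPKM in cadmium and 4.09 to 6.47 FPKM in control libraries, and ROOT HAIR DEFECTIVE 6 was matched by 0 clusters. Whether these values reflect a shift in tissue make-up was not tested, nor was the part of such a shift in the results. In whole roots fewer cells of a type cannot be told apart from less RNA per cell.

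The comparison asked which of these chromatin proteins differed in transcript level under cadmium. The main SSRP1 cluster rose under cadmium, and 7 other HMG clusters fell, 6 of them in the HMGB group. Of the 46 clusters, 30 had enough counts to be tested, which left 1 higher, 7 lower and 22 that did not pass (quasi-likelihood test of edgeR, adjusted p below 0.05 by Benjamini-Hochberg over all 4844 tested clusters). Of all tested clusters, 30.5% passed, 15.8% higher and 14.6% lower in cadmium. The HMG shares were 3.33% higher and 23.3% lower. The median log2 fold change of cadmium over control was −0.61 over the 30 HMG clusters and −0.08 over all tested clusters, and 24 of the 30 were negative, against 52.6% of all. DESeq2 called 9 HMG clusters lower and 1 higher, where it called 21.5% of all clusters lower and 21.8% higher. Leaving out control replicate 2 left 4 HMG clusters lower in edgeR, and the median was −0.40 without control replicate 3.

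TMM scaling sets these fold changes against the other regulators. With whole-library totals in its place, the median over all tested clusters shifted by −0.35 on the log2 scale. Then 11 of 28 HMG clusters passed as lower and 1 as higher, the HMG median was −0.96, and 26 of 28 fold changes were negative. On that scale 23.1% of all tested clusters were lower, 10.9% were higher and 63.9% had a negative fold change. On deposited FPKM, which are also relative to the whole library, limma called 17 HMG clusters lower with a pseudocount of 1 and 16 with 0.1, where it called 29.8% and 28.5% of all clusters lower. It called 1 HMG cluster higher with each, where 14.6% and 13.7% of all clusters were higher. Of the 6 HMG clusters with a positive fold change after TMM scaling, 3 were negative with whole-library totals, 2 were SSRP1 clusters that stayed positive and 1 was not tested. CPM below are relative to the regulator counts of a library after TMM scaling, and FPKM are the deposited values per length and whole library.

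**Figure D1:**
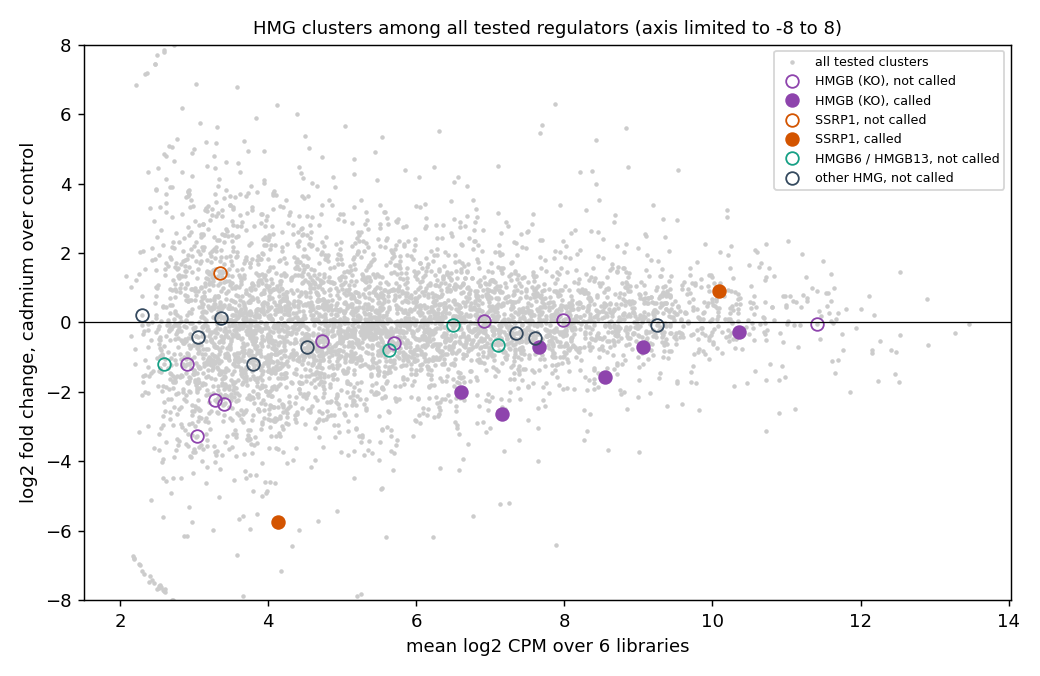
Log2 fold change of cadmium over control (vertical axis) against the mean log2 CPM over 6 libraries (horizontal axis) for all tested clusters (grey) and the 30 tested HMG clusters, coloured by role, filled where they passed. The SSRP1 cluster at 0.92 stands alone above zero among the 8 filled points, 59 grey clusters lie outside the plotted range of 8 either way, and no HMG cluster does.

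SSRP1, the HMG-box subunit of FACT, rose in its main cluster and in summed counts, while its summed FPKM overlapped between the groups. Its main cluster (Cluster-9033.60020, 2161 bases, best hit grape SSRP1) had 1403, 1551 and 1537 CPM in cadmium libraries, against 835, 787 and 758 CPM in control libraries. Every cadmium library lay above every control library. The log2 fold change was 0.92 ± 0.07 (SE, n = 3 per group; edgeR, Benjamini-Hochberg adjusted p = 0.000453), and it was 0.57 with whole-library totals (edgeR, adjusted p = 0.0036). Per length and whole library the cluster averaged 40.7 ± 3.05 FPKM in cadmium and 27.3 ± 1.51 FPKM in control roots (SD, n = 3 each). Summed with the other cluster of the same best NR protein it gave a log2 fold change of 0.92 as well (edgeR on sums, adjusted p = 8.29e-06), where 30.4% of all summed proteins passed as higher. That other cluster, Cluster-9033.60880 (2383 bases), had 14.2, 35.1 and 6.84 CPM in cadmium libraries and 7.95, 0 and 12.8 CPM in control libraries, with overlap, and did not pass (log2 fold change 1.42 ± 1.3, SE; edgeR, adjusted p = 0.466).

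A shorter SSRP1 cluster went the other way. Cluster-9033.60882 (962 bases) had 0, 6.47 and 0 CPM in cadmium libraries, against 62.9, 140 and 149 CPM in control libraries. It was nearly lost in cadmium roots, with no overlap between the groups. Its log2 fold change was −5.74 ± 1.27 (SE, n = 3 per group; edgeR, adjusted p = 0.0176), and the call ended without control replicate 2 (adjusted p = 0.0605) or control replicate 3 (adjusted p = 0.0576). Summed with Cluster-9033.60881, which shares its best NR protein, it averaged 2.72 ± 3.35 CPM in cadmium and 126 ± 52 CPM in control roots (SD, n = 3 each), with a log2 fold change of −5.53 ± 0.66 (SE; edgeR on sums, adjusted p = 8.25e-05). Its coding stretch spans bases 155 to 820, against 155 to 2134 on the main cluster. Both are annotated on the minus strand, so base 155 need not be where coding starts. The KOG name of Cluster-9033.60882 is that of an HMG box-containing protein. Over the 5 SSRP1 clusters together this cluster held 0%, 0.407% and 0% of the counts in cadmium libraries, against 6.9%, 14.8% and 16% in control libraries. The main cluster held 97.2% to 99.4% in cadmium and 81% to 91.8% in control libraries. All 5 clusters together took 0.148% ± 0.0096 of regulator counts in cadmium and 0.0955% ± 0.00156 in control roots (SD, n = 3 each), so the summed SSRP1 counts were higher in cadmium although one cluster fell. Summed FPKM, in which short clusters weigh more, were 41.8 ± 3.25 in cadmium and 39.7 ± 3.81 in control roots (SD, n = 3 each) and overlapped. The remaining SSRP1 clusters, Cluster-9033.60881 and Cluster-5650.0, had too few counts to be tested, with means of 0.57 and 2.04 CPM in cadmium and 9.22 and 2.64 CPM in control roots.

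**Figure D2:**
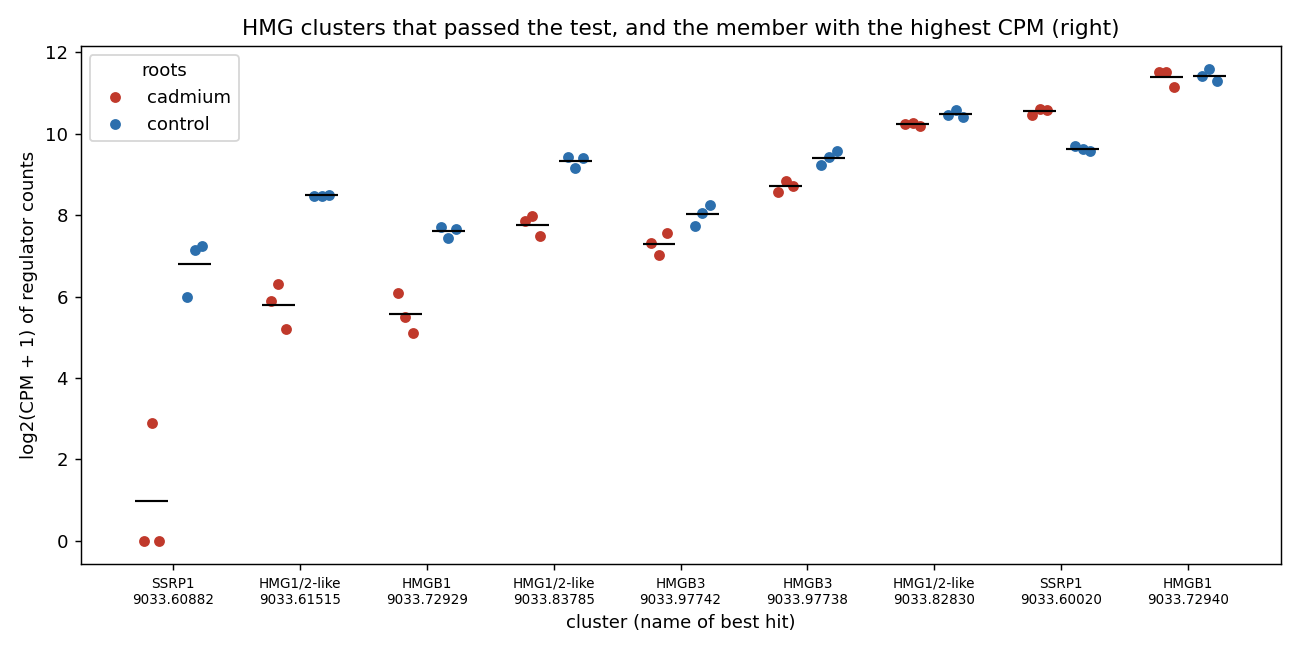
Log2(CPM + 1) in each library for the 8 HMG clusters that passed and, at the right, the member with the highest CPM; cadmium (red) stands left of control (blue), points are libraries and bars are group means. The groups do not overlap in the first 8, where SSRP1 Cluster-9033.60020 is the one with cadmium above control, and they overlap in HMGB1 Cluster-9033.72940.

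The HMGB group, the small one-box proteins, had 6 clusters lower, 0 higher and 9 not passing among 15 tested in edgeR, with a median log2 fold change of −0.72. At an unadjusted p below 0.05 it had 7 lower and 0 higher, where 20.9% of all tested clusters were lower and 20.9% higher, and DESeq2 called 8 lower and 0 higher. Among the 15 tested HMG clusters outside the group, 1 was higher, 1 was lower and 13 did not pass, with a median of −0.41. Both medians were negative with whole-library totals too (−1.07 and −0.78), where the counts lower were 7 of 15 and 4 of 13. The difference between the 2 groups was not tested. Of the group's 15 tested clusters 13 had a negative fold change, against 52.6% of all tested clusters. With whole-library totals all 15 did, against 63.9% of all. Of all tested clusters edgeR called 14.6% lower and 15.8% higher, and DESeq2 called 21.5% lower and 21.8% higher. With whole-library totals edgeR called 23.1% lower and 10.9% higher.

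HMGB1 is the Arabidopsis protein named by the HMG cluster with the most counts, although Cluster-9033.82830, described below, had higher mean FPKM in both groups. So did the short Cluster-9033.83785, whose FPKM are not comparable with those of longer clusters, as described below. Cluster-9033.72940 (1055 bases) had 2940, 2900 and 2250 CPM in cadmium libraries, against 2718, 3051 and 2520 CPM in control libraries. The groups overlapped and the cluster did not pass (log2 fold change −0.04 ± 0.13, SE; edgeR, adjusted p = 0.872; −0.38 and adjusted p = 0.0504 with whole-library totals). On deposited FPKM limma called it lower, by −0.38 on the log2 scale with either pseudocount (adjusted p = 0.0274 with 1 and 0.0336 with 0.1). It held 33.5% ± 3.47 of all HMG counts in cadmium and 29.5% ± 2.35 in control roots (SD, n = 3 each). The smaller HMGB1 Cluster-9033.72929 (771 bases) fell, with 67, 44.4 and 33.3 CPM in cadmium libraries, against 210, 174 and 201 CPM in control libraries. Its log2 fold change was −2.01 ± 0.29 (SE, n = 3 per group; edgeR, adjusted p = 0.00357). Cluster-9033.72934 (849 bases) had 0, 0 and 17.1 CPM in cadmium libraries and 31.1, 22.4 and 34.3 CPM in control libraries, without overlap, but did not pass (log2 fold change −2.34 ± 1.57, SE; edgeR, adjusted p = 0.317). Without cadmium replicate 3 it passed (adjusted p = 0.0116).

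Summed over their 5 clusters, HMGB1 counts did not pass. They averaged 2802 ± 421 CPM in cadmium and 3059 ± 254 CPM in control roots (SD, n = 3 each), a log2 fold change of −0.13 ± 0.11 (SE; edgeR on sums, adjusted p = 0.36). Within the sum, Cluster-9033.72929 held 2.19%, 1.46% and 1.44% in cadmium libraries, against 6.87%, 5.21% and 7.15% in control libraries. The main cluster held 95.7% to 97.3% in cadmium and 89.3% to 91.7% in control libraries. Cluster-9033.72929 thus fell while the summed HMGB1 counts did not pass.

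HMG1/2-like clusters, named after a morning glory or faba bean HMGB protein, held 3 of the 6 HMGB clusters that fell, among them Cluster-9033.61515 with the largest fold change of the 6. Cluster-9033.61515 (1288 bases) had 58.6, 77.7 and 35.9 CPM in cadmium libraries, against 356, 355 and 359 CPM in control libraries. The control values lay within a few CPM of each other and far above all cadmium values. The log2 fold change was −2.64 ± 0.28 (SE, n = 3 per group; edgeR, adjusted p = 0.00124). The cluster shares its best NR protein with the HMG1/2-like cluster of highest CPM, Cluster-9033.82830 (532 bases), which had 1216, 1224 and 1156 CPM in cadmium libraries and 1418, 1529 and 1366 CPM in control libraries. It fell by 0.26 ± 0.07 on the log2 scale (SE; edgeR, adjusted p = 0.0314), without overlap, and the call ended when any of the 3 cadmium libraries or control replicate 1 or 2 was left out (adjusted p between 0.0883 and 0.104).

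Over the 5 clusters of that protein the counts fell too. The sum averaged 1541 ± 50.4 CPM in cadmium and 2088 ± 71 CPM in control roots (SD, n = 3 each), a log2 fold change of −0.44 ± 0.07 (SE; edgeR on sums, adjusted p = 0.000347). Cluster-9033.61515 held 3.73%, 4.92% and 2.41% of the sum in cadmium libraries, against 17.7%, 16.3% and 17.3% in control libraries. Cluster-9033.86868 (1196 bases), whose coding stretch also starts at base 67, had a log2 fold change of 0.07 ± 0.14 (SE; edgeR, adjusted p = 0.731) and held 15.4% to 17.6% of the sum in cadmium and 10.5% to 13.4% in control libraries. The clusters of this NR protein thus differed in their share of the sum between the groups, as HMGB1 clusters did. By best Swiss-Prot hit, however, Cluster-9033.61515 was not summed with Cluster-9033.82830. The log2 fold changes of their Swiss-Prot sums were −2.63 and −0.50 (edgeR on sums, adjusted p = 2.11e-05 and 0.000185).

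Cluster-9033.83785 stands for another HMG1/2-like protein, and no other cluster shares its best NR hit. This cluster is a fragment of 275 bases that is coding throughout and whose KOG name is that of an HMG box-containing protein. It had 229, 251 and 177 CPM in cadmium libraries, against 688, 573 and 680 CPM in control libraries. The groups were far apart, with a log2 fold change of −1.56 ± 0.16 (SE, n = 3 per group; edgeR, adjusted p = 0.00106) that was −1.91 with whole-library totals. Its FPKM of 244 ± 28.4 in cadmium and 849 ± 82.2 in control roots (SD, n = 3 each) are not comparable with those of longer clusters, because the deposited FPKM rest on lengths shortened by 227 to 241 bases.

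Another HMG1/2-like protein, at low level, fell as a sum of its 2 clusters, while neither cluster passed alone in edgeR. Cluster-9033.86870 (1860 bases) had 0, 0 and 6.84 CPM in cadmium libraries, against 16.6, 28 and 23.9 CPM in control libraries, with a log2 fold change of −3.26 ± 1.44 (SE; edgeR, adjusted p = 0.142; DESeq2, adjusted p = 0.0347). It passed without cadmium replicate 3 (adjusted p = 0.0165). Cluster-9033.82829 (1782 bases) had 5.03, 14.8 and 0 CPM in cadmium libraries and 20.2, 0 and 25.5 CPM in control libraries. Both clusters were at 0 in single libraries while the other was not, and their sum averaged 8.88 ± 5.17 CPM in cadmium and 37.6 ± 10.3 CPM in control roots (SD, n = 3 each). The sum had a log2 fold change of −2.08 ± 0.48 (SE; edgeR on sums, adjusted p = 0.00431). Cluster-9033.82831, a low HMG1/2-like cluster of 661 bases, had 4.19, 0.924 and 5.98 CPM in cadmium libraries and 17.3, 19.2 and 16.8 CPM in control libraries, without overlap. It did not pass (log2 fold change −2.23 ± 0.75, SE; edgeR, adjusted p = 0.071), but passed with whole-library totals (adjusted p = 0.0412) and in DESeq2 (adjusted p = 0.00542).

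HMGB3, a one-box HMGB protein of Arabidopsis, was the best Swiss-Prot hit of 9 clusters, 4 of them tested. Cluster-9033.97738 (948 bases) had 381, 457 and 422 CPM in cadmium libraries, against 600, 684 and 759 CPM in control libraries, and Cluster-9033.97742 (995 bases) had 157, 129 and 188 CPM in cadmium libraries, against 212, 265 and 305 CPM in control libraries. In both, each cadmium library lay below each control library. The log2 fold changes were −0.70 ± 0.12 and −0.72 ± 0.2 (SE, n = 3 per group; edgeR, adjusted p = 0.00734 and 0.0411), and the second call ended without cadmium replicate 1 or 2 or control replicate 2 or 3 (adjusted p between 0.107 and 0.132). Both clusters have bases 181 to 618 as coding stretch, and their counts stayed in a like proportion, Cluster-9033.97742 holding 22.1% to 30.8% of the protein's sum in cadmium and 25.5% to 27.7% in control libraries. The sum over 6 clusters averaged 581 ± 34.2 CPM in cadmium and 963 ± 131 CPM in control roots (SD, n = 3 each), a log2 fold change of −0.73 ± 0.11 (SE; edgeR on sums, adjusted p = 0.000316). HMGB3 was thus lower both by cluster and as a sum. The 2 other tested HMGB3 clusters did not pass, with log2 fold changes of −0.55 for Cluster-9033.105464 and 0.06 for Cluster-9033.97736. Neither shares the best NR protein of that sum, and Cluster-9033.105464 was summed with the HMG1/2-like protein of Cluster-9033.61515.

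**Figure D3:**
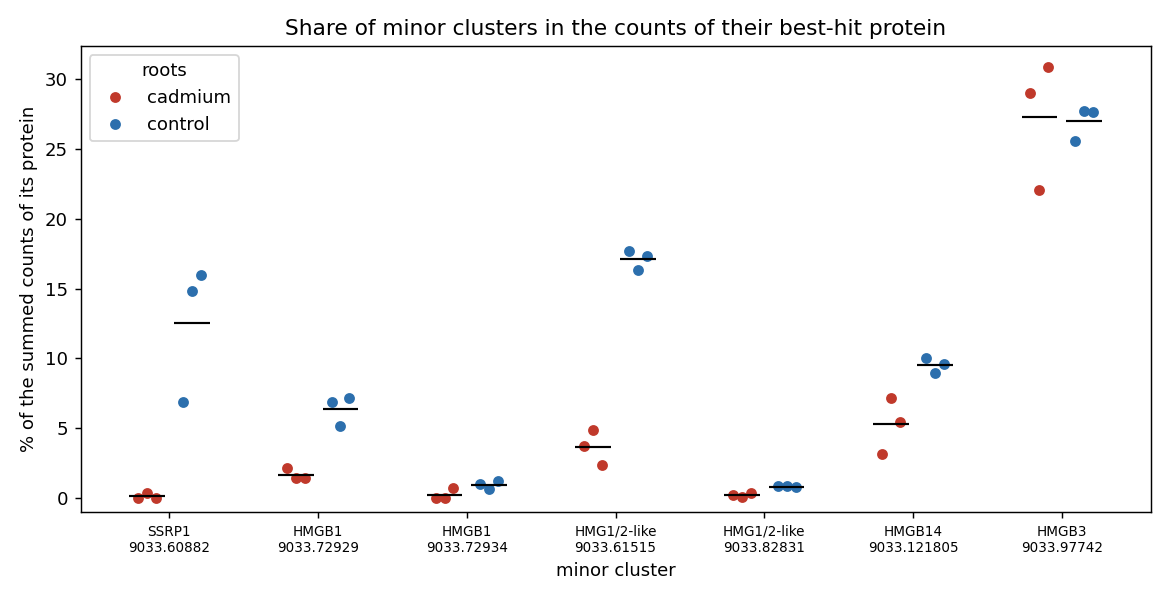
Share of 7 minor clusters in the summed counts of their protein, in percent of that sum per library; cadmium (red) stands left of control (blue), points are libraries, bars are means, and for SSRP1 the sum is over all 5 SSRP1 clusters. Cluster-9033.61515 holds 2.41% to 4.92% in cadmium and 16.3% to 17.7% in control libraries, and the HMGB3 Cluster-9033.97742 holds a like share in both groups.

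The HMGB6 and HMGB13 group, proteins with several HMG boxes, had 0 clusters passing of 4 tested (edgeR), 0 of the 4 at an unadjusted p below 0.05 and 0 in DESeq2, while limma on log2(FPKM + 1) called 2 lower and on log2(FPKM + 0.1) 1 lower. HMGB6 Cluster-9033.30560 (1329 bases), the highest of the group, had 74.5, 125 and 138 CPM in cadmium libraries, against 112, 187 and 227 CPM in control libraries. The ranges overlapped, and the log2 fold change was −0.64 ± 0.34 (SE; edgeR, adjusted p = 0.215). Cluster-9033.30559 (1337 bases) had 8.38, 1.85 and 0 CPM in cadmium libraries and 9.39, 8.8 and 5.58 CPM in control libraries (log2 fold change −1.19 ± 1.22, SE; edgeR, adjusted p = 0.519). All 4 fold changes of the group were negative, the others being −0.80 for HMGB6 Cluster-9033.30565 and −0.07 for HMGB13 Cluster-9033.30557. Summed over the 6 clusters of its main NR protein, this group averaged 165 ± 35.7 CPM in cadmium and 267 ± 83.2 CPM in control roots (SD, n = 3 each) and fell by 0.69 ± 0.25 on the log2 scale (SE; edgeR on sums, adjusted p = 0.0354). Control replicate 1 was the low one of its group, with 0.0241% of regulator counts in the 8 clusters, against 0.0404% and 0.047% in the other control libraries and 0.0203% to 0.0297% in cadmium libraries. The share of the 8 clusters thus overlapped between the groups.

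HMGB14 was the best hit of 3 clusters, with 0 passing and 0 at an unadjusted p below 0.05 in edgeR and 0 passing in DESeq2, while limma on log2(FPKM + 1) called 2 lower. Cluster-9033.97638 (956 bases) averaged 145 ± 9.07 CPM in cadmium and 179 ± 10.9 CPM in control roots (SD, n = 3 each), without overlap (log2 fold change −0.30 ± 0.13, SE; edgeR, adjusted p = 0.127), and passed with whole-library totals (adjusted p = 0.0116). The smaller Cluster-9033.121805 (974 bases) had 4.19, 11.1 and 9.4 CPM in cadmium libraries, against 21, 18.4 and 17.6 CPM in control libraries (log2 fold change −1.20 ± 0.57, SE; edgeR, adjusted p = 0.165). Their sum fell by 0.37 ± 0.12 on the log2 scale (SE; edgeR on sums, adjusted p = 0.0281), to 154 ± 11.9 CPM in cadmium, against 198 ± 13 CPM in control roots (SD, n = 3 each). The third, Cluster-9033.37218, overlapped widely between the groups (log2 fold change 0.12 ± 1.48, SE; edgeR, adjusted p = 0.96). Summed over the best Swiss-Prot hit, which all 3 clusters share, HMGB14 did not pass (log2 fold change −0.32; edgeR on sums, adjusted p = 0.0557).

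HMGB9, which joins an ARID domain to the HMG box, was at 0, 3.7 and 1.71 CPM in cadmium and 3.61, 3.2 and 0 CPM in control libraries (Cluster-11320.0) and was too low to be tested. Summed with 3 clusters of the ARID family that share its best protein, it averaged 19.2 ± 2.89 CPM in cadmium and 11.6 ± 3.56 CPM in control roots (SD, n = 3 each) and did not pass (log2 fold change 0.73 ± 0.41, SE; edgeR on sums, adjusted p = 0.151). Outside the HMG family, 7 clusters carried an HMG protein's name, all in the ARID family. Of them 1 was tested, HMGB10 (Cluster-9033.57658), with 157, 172 and 178 CPM in cadmium libraries and 149, 161 and 183.5 CPM in control libraries, and it did not pass (log2 fold change 0.04 ± 0.14, SE; edgeR, adjusted p = 0.872).

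Of the 5 clusters whose hits name no HMG protein, 0 passed and 0 were at an unadjusted p below 0.05 in edgeR, and 0 passed in DESeq2, while limma on FPKM called 1 of the 4 DRT100 clusters and the uncharacterized cluster lower with both pseudocounts. The uncharacterized Cluster-9033.139057 (2288 bases) had 575, 604 and 597 CPM in cadmium libraries, against 654, 613 and 602 CPM in control libraries (log2 fold change −0.07 ± 0.07, SE; edgeR, adjusted p = 0.501). With whole-library totals it passed as lower (log2 fold change −0.42, adjusted p = 0.0093), as did DRT100 Cluster-9033.160923 (log2 fold change −0.79, adjusted p = 0.0265). The 4 DRT100 clusters summed to 200 ± 30.1 CPM in cadmium and 274 ± 47.5 CPM in control roots (SD, n = 3 each), with a log2 fold change of −0.45 ± 0.16 (SE; edgeR on sums, adjusted p = 0.0385). The groups overlapped, with 233 CPM in cadmium replicate 3 and 222 CPM in control replicate 1. Summed over the best Swiss-Prot hit of Cluster-9033.160923, the counts did not pass (log2 fold change −0.46; edgeR on sums, adjusted p = 0.066). Without the 5 clusters, 1 of 25 tested HMG clusters was higher and 7 were lower, with a median of −0.70.

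**Figure D4:**
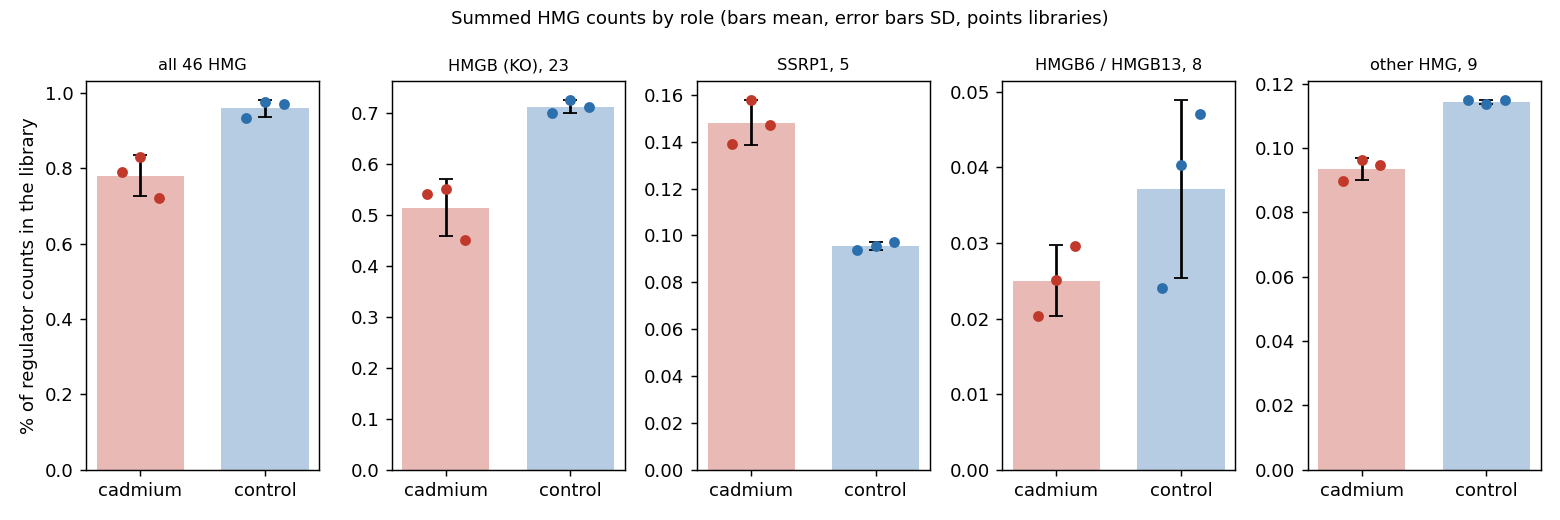
Summed counts of the HMG clusters as percent of the regulator counts of each library, for the family and for each role; bars are means, error bars SD, points libraries (n = 3 per group), and the panels have their own vertical scales from 0. SSRP1 is higher in cadmium, HMGB is lower, and the HMGB6 and HMGB13 panel overlaps; HMGB9 is left out.

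Summed over its clusters, the HMG family gave 0.79%, 0.831% and 0.722% of regulator counts in cadmium libraries, against 0.933%, 0.976% and 0.97% in control libraries. The groups did not overlap. The HMGB group alone averaged 0.514% ± 0.0556 in cadmium and 0.713% ± 0.0133 in control roots (SD, n = 3 each). As a share of all fragments in the recovered library totals, the family held 0.0419% ± 0.00235 in cadmium and 0.0622% ± 0.0012 in control roots (SD, n = 3 each), and the HMGB group held 0.0276% ± 0.00239 in cadmium and 0.0462% ± 0.000606 in control roots. On both denominators SSRP1 was the role with the higher share of counts in cadmium. Its summed FPKM, 41.8 ± 3.25 in cadmium and 39.7 ± 3.81 in control roots (SD, n = 3 each), overlapped.

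Summed over the best NR protein, 15 of the 21 proteins could be tested, which left 1 higher, 8 lower and 6 that did not pass (edgeR on sums). Over all 2072 summed proteins 30.4% were higher and 29.9% lower. The higher one was the SSRP1 protein of Cluster-9033.60020 and Cluster-9033.60880. The 8 lower ones were the second SSRP1 protein, made up of Cluster-9033.60881 and Cluster-9033.60882, 3 HMG1/2-like proteins, HMGB3, HMGB6, HMGB14 and DRT100. HMGB1, HMGB13, HMGB9, the uncharacterized protein and single further HMGB3 and HMGB14 proteins did not pass. The Swiss-Prot sums that held HMGB14 Cluster-9033.97638 and DRT100 Cluster-9033.160923 did not pass either (edgeR on sums, adjusted p = 0.0557 and 0.066).

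**Figure D5:**
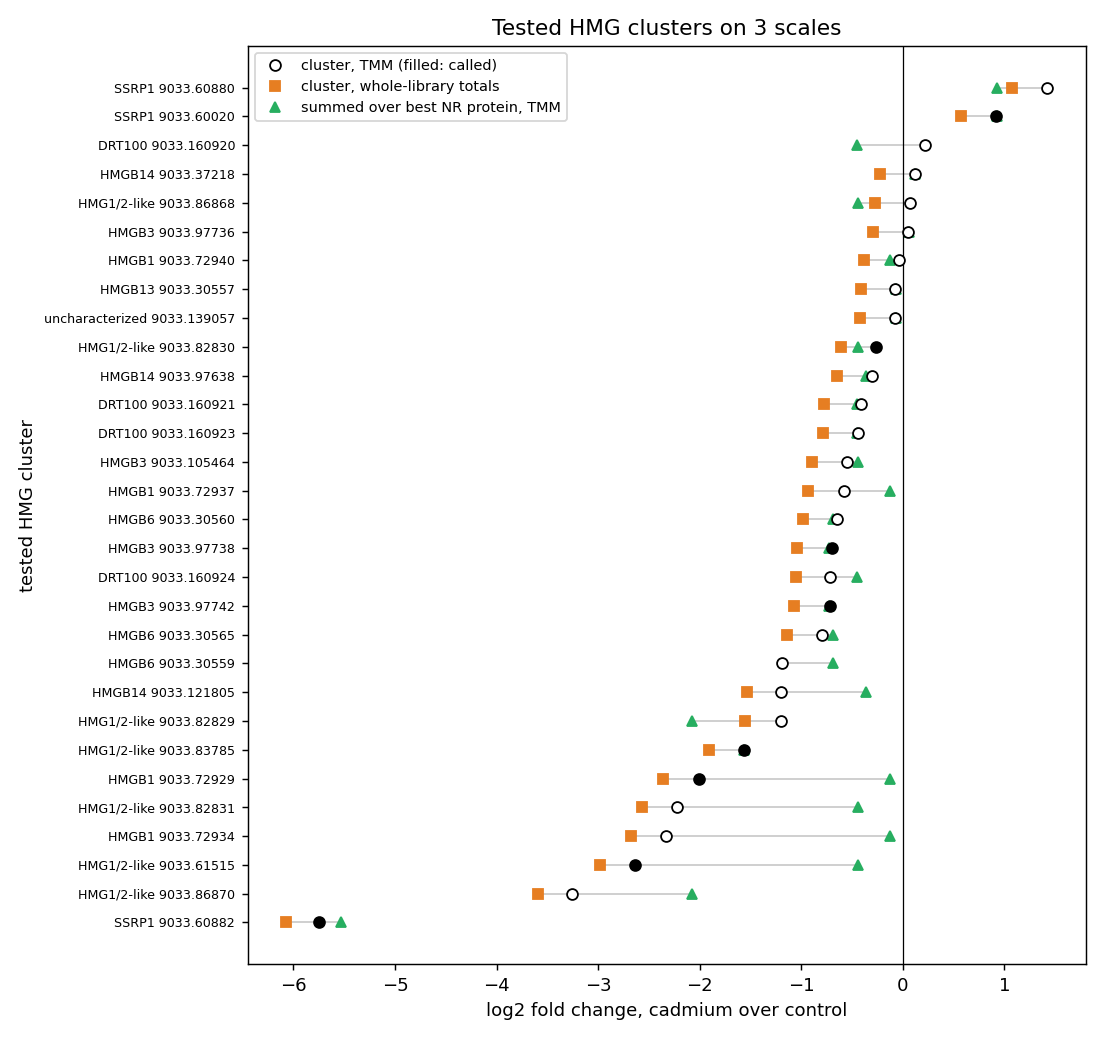
Log2 fold change of cadmium over control for the 30 tested HMG clusters (rows) on 3 scales: the cluster after TMM scaling (circles, filled where it passed), the cluster with whole-library totals (squares) and the sum over its best NR protein (triangles). The sum lies close to 0 for HMGB1 clusters such as Cluster-9033.72929 (−0.13, against −2.01 for the cluster), while SSRP1 Cluster-9033.60020 is above 0 on every scale.

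Of the 30 tested HMG clusters 13 showed no overlap between the groups, 12 lower and 1 higher in cadmium. That is 43.3% of the 30, against 53.5% of all tested clusters, of which 27.9% were lower and 25.6% higher. The authors' deposited table gave a q-value below 0.05 to 8 of the 46, 1 higher and 7 lower, against 8.95% higher and 10.2% lower of all clusters with a q-value. Its calls included 7 of the 8 made here. It called Cluster-9033.86870 in addition (q-value 0.0258 in the authors' deposited table) and did not call Cluster-9033.82830 (q-value 0.171 in the authors' deposited table).

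The 16 HMG clusters without a test had low counts, 8 in the HMGB group, 4 in the HMGB6 and HMGB13 group, 2 in SSRP1 and 1 each for HMGB9 and an HMG1/2-like protein. The highest mean count per group among them was 25, from Cluster-12643.0, which had 54.2 CPM in control replicate 1 and at most 0.924 CPM in any other library. Clusters at 0 in all 3 cadmium libraries were Cluster-9033.105465, Cluster-9033.97740 and Cluster-17481.0, which were at least 5.5-fold, 10.9-fold and 5.26-fold lower than in control roots against a floor of 3 counts over the group, counting error only. Cluster-17481.0 and Cluster-9033.105465 were above 0 in 1 control library each. Cluster-9033.97740 had 25.2, 0.03 and 13.4 counts in the control libraries. No HMG cluster was at 0 in all 3 control libraries. Over all regulators, 626 clusters were at 0 in all 3 cadmium libraries but not in all control libraries, and 394 the other way round.

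Other chromatin regulators of the table, in the ARID, SNF2, SWI/SNF, SET, Jumonji, PHD, GNAT, Alfin-like and DDT families, gave a background for the HMG values. Of 656 tested clusters 84 were higher and 48 lower in cadmium, with a median log2 fold change of −0.04, and with whole-library totals 43 of 657 were higher and 94 lower. The pooled balance of these families turned with the scaling, but not that of each family. The Alfin-like family, plant PHD-finger proteins, had 1 higher and 4 lower of 19 tested after TMM scaling and 0 higher and 10 lower with whole-library totals (edgeR; 0 higher at an unadjusted p below 0.05 there, and 1 higher in DESeq2), so it had more clusters lower than higher on both scales, as the HMG family did. The SNF2 family, chromatin remodelling ATPases, had 20 higher and 9 lower of 131 after TMM scaling and 14 each way of 130 with whole-library totals. The FACT subunit SPT16 and HMGA-type proteins were matched by 0 clusters outside the HMG family and are not analysed here.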

How the data were processed

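RNA was measured in 3 cadmium and 3 control root libraries. Expected counts per gene cluster (read counts per the file headers, often with decimals) and FPKM were deposited by the authors, as were a log2 ratio and a q-value of cadmium over control, whose test no source used here gives. Bowtie2 2.0.6 and TopHat2 2.0.12 are listed, without their roles, by the submitters' processing notes, and neither an assembler nor a counter is given. Clusters on several lines were used once. Counts were rounded and fitted with edgeR 4.0.16 in R 4.3.3 over the whole table: filterByExpr (minimum count 10, minimum total 15), TMM, group as the only term, quasi-likelihood test, Benjamini-Hochberg adjustment, threshold 0.05. SE is the log2 fold change over the square root of F. Library totals were recovered from counts, FPKM and length, over clusters above 300 counts and 10 FPKM. Sums take all clusters with one best hit, with their own TMM and fit. Shares of a protein or of the family use unrounded counts. The fit was also run on simulated data with known changes, as a check of the code that bears on no call given here. Alternatives included DESeq2 1.42.0 and limma 3.58.1 on log2(FPKM + 1) and log2(FPKM + 0.1). Python 3.11.15 and matplotlib 3.10.9 made tables and figures.

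The members, lists and settings were chosen with earlier results of these data known. Named clusters are all HMG clusters that passed, in each role the highest one and the largest fold change that did not pass, and those not passing with no overlap and a log2 fold change beyond 1 either way. Clusters added to describe sums (such as Cluster-9033.82829, Cluster-9033.86868, Cluster-9033.97638) and those at 0 were chosen after their values were seen. Library depth limits low clusters most. P-values set the difference between the groups against the spread between libraries, 3 per group, which edgeR estimates with the help of all tested clusters.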

Additional observations from a re-analysis of the deposited data

How the results depend on the processing

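The count of HMG clusters higher was 1 under each of the alternatives run. The count lower was 11 with whole-library totals, 17 and 16 with limma on log2(FPKM + 1) and log2(FPKM + 0.1), and 4 to 8 with one library left out, against 7. With sums over the best Swiss-Prot hit, 5 of 13 HMG proteins were lower and 1 higher, where 56.7% of all sums changed either way. The HMG median log2 fold change of −0.61 was −0.96 with whole-library totals, −0.96 with limma on log2(FPKM + 0.1), −0.32 and −0.37 with sums over the best Swiss-Prot and NR hits, and −0.83 to −0.40 with one library left out. The log2 ratio of the HMG share of −0.30 was −0.57 with whole-library totals as denominator and −0.34 to −0.24 with one library left out. Of all 4844 tested clusters 886 changed with the replicate block, against 1476 (30.5%), and of 1501 Swiss-Prot sums 851 changed (56.7%). For the other chromatin families, 84 higher and 48 lower of 656 became 43 and 94 with whole-library totals, 130 and 81 with DESeq2, 49 and 125 with limma on log2(FPKM + 1), 47 and 122 with limma on log2(FPKM + 0.1), 50 and 19 with the replicate block, 54 and 40 of 199 sums over Swiss-Prot hits, and 60 to 69 higher and 30 to 48 lower with one library left out. The causes of these differences were not tested. The sums also have fewer features than the clusters.

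By the labels the same-numbered libraries share only a number. Their deviations correlated at 0.00465, 0.0292 and −0.00377, which cannot show that they had no handling in common. With the replicate block 5 HMG clusters were lower and 1 higher, and the calls of Cluster-9033.82830 (adjusted p = 0.0778) and Cluster-9033.97742 (adjusted p = 0.0668) ended; both also ended without a filter on low counts (adjusted p = 0.0722 and 0.0645). The fold change of Cluster-9033.72940, which did not pass, was −0.04 and positive at 0.0857 without cadmium replicate 3 and 0.0408 without control replicate 2, in a range down to −0.0955 with one library left out. As single clusters, 3 kinds of HMGB cluster and the main SSRP1 cluster kept direction and call under all alternatives run. These were SSRP1 Cluster-9033.60020, HMG1/2-like Cluster-9033.61515 and Cluster-9033.83785, HMGB1 Cluster-9033.72929 and HMGB3 Cluster-9033.97738. With sums the value is the protein's: for the protein of Cluster-9033.61515 it was −0.44 over the NR hit and −2.63 over the Swiss-Prot hit, against −2.64, and for that of Cluster-9033.83785 it was −1.56 and −0.50, against −1.56. For that of Cluster-9033.97738 it was −0.73 and −0.61, against −0.70, and for that of Cluster-9033.60020 0.92 and 0.93, against 0.92. For that of Cluster-9033.72929 it was −0.13 and −0.12, against −2.01, and neither sum passed.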
